A study of Mus musculus with 16 samples.

Results

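The cytosolic ribosome is built from ribosomal RNA and a fixed set of proteins, the Rpl proteins of the large subunit and the Rps proteins of the small subunit, and it carries out all protein synthesis outside the mitochondria. Genes were counted as members when the symbol began with Rpl or Rps followed by a digit, or was Rplp0, Rplp1, Rplp2 or Rpsa. Pseudogenes, the S6 kinase genes (Rps6k), Rps19bp1 and Rpl7l1 were left out, and Rpl3l was kept. The RefSeq table held 87 such protein-coding genes, and the array had a probe for 86 of them. In all 83 were tested among 13725 genes, 50 of the large and 33 of the small subunit. The subunit was assigned by symbol alone, also for the retrogene Rps23rg1. Rps27rt had no probe. The probes of Rpl10l and Rpl37 were well above background on 0 of 16 arrays and that of Rpl39l on 3, so these genes were not tested. All 83 tested members were well above background on all 16 arrays, so none was admitted through a single group.

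Messenger RNAs of ribosomal proteins begin with a stretch of pyrimidines, the 5′ terminal oligopyrimidine (TOP) tract, shared with elongation factors and other parts of the translation machinery. The kinase Akt acts upstream of mTORC1, which promotes the translation of TOP mRNAs and phosphorylates S6 kinase, whose best known substrate is the ribosomal protein Rps6. In heart muscle cells, ribosome content rises during growth of the heart, and Rpl3l is a form of Rpl3 that is largely restricted to striated muscle.

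Hearts of 3-month-old male C57Bl/6 mice were compared between 4 groups of 4 mice each, with 1 microarray per mouse. All mice, controls included, carried a heterozygous αMHC-MerCreMer transgene, a tamoxifen-dependent Cre recombinase driven by a cardiomyocyte promoter, and all received 500 µg hydroxytamoxifen per day for 5 days. Controls carried this transgene alone. AKT1 KO mice were in addition homozygous for AKT1 flox/flox (loxP sites around exons 6 and 7), AKT2 KO mice for AKT2 flox/flox (exons 5 and 6), and AKT1+AKT2 DKO mice, the double knockout, for both. RNA came from the heart apex 21 days after induction, without further treatment, so it included cells in which Cre is not expressed and Akt is kept.

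Levels are given as log2 signal relative to the 75th percentile of the same array, so a change of 1 is a factor of 2. The 75th percentile lay between 333 and 548.1 intensity units, and 43.1 to 54% of probes were well above background. The Akt2 probe checked the labels. Akt2 lay at 5.46 ± 0.0618 in controls (mean ± SD, n = 4 here and below) and changed by -2.39 in AKT2 KO hearts and by -2.0 in the double knockout (limma, adjusted p = 3.9e-09 and 4.47e-09). Akt1 read 5.69 in controls, 5.77 in AKT1 KO and 5.66 in the double knockout. The place of its probe relative to the deleted exons is not given in the sources used here, so Akt1 checks nothing. Each group filled 1 column of both slides, so group and slide column cannot be told apart.

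The start sites of 7 members that the results turn on are shown because TOP mRNAs begin in a pyrimidine stretch at this place. The RefSeq promoter table (GRCm38.p6) held an entry for 63 of the 83 members, but none for Rpl3. Each line gives 60 bases before the annotated start and the first 20 bases of the transcript, 5′ to 3′ on the gene's strand. Capitals mark CCTTTC, or the same motif with T in place of C as its first base, its last base or both. Capitals would also mark CCGGAAGT, the core recognised by ETS factors, or its reverse complement, but none of the 7 windows held it. The start used for Rps12 lies 174 bases inside the outer end of the gene in the RefSeq gene table.
Rpl12 (chr2:32961652-32961731, plus strand): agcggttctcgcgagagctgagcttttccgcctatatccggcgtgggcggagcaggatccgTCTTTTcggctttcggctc
Rps12 (chr10:23787190-23787269, minus strand): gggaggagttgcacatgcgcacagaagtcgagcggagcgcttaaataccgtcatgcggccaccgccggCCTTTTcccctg
Rpl39 (chrX:37085203-37085282, minus strand): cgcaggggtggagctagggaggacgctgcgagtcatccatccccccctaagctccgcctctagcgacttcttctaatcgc
Rpl36a (chrX:134585594-134585673, plus strand): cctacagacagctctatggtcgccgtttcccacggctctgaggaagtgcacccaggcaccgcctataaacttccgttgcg
Rps6 (chr4:86857348-86857427, minus strand): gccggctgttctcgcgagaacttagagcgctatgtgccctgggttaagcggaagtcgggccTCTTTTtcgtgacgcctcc
Rpl3l (chr17:24727766-24727845, plus strand): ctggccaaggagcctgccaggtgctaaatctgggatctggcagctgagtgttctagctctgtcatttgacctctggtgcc
Rps13 (chr7:116334171-116334250, minus strand): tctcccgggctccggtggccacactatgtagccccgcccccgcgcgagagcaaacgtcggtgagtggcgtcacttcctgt
The pyrimidine motif lay on the transcript strand of 25 of 63 member windows (39.7%), against 3060 of 27025 windows of all genes in the table (11.3%). With either strand counted, the shares were 42.9 and 20.9%. CCGGAAGT on either strand was present in 6 of the 63 windows (9.52%) and in 2.4% of all windows. In the double knockout, the 25 members with a pyrimidine motif had a median log2 change of 0.64 (range -0.24 to 1.02), and the 38 without one a median of 0.63 (range -1.65 to 0.96). These are matches of letters in a window and no measure of binding or of translation. The motif was sought anywhere in the 80 bases, and other pyrimidine stretches were not counted. A window without a match can thus still hold a pyrimidine start. The medians with and without a match therefore do not compare TOP mRNAs with others.

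In the double knockout, ribosomal protein genes of both subunits rose together, by about 1.5-fold. Against control, 76 of the 83 members were higher and 2 were lower at an adjusted p under 0.05 (limma, Benjamini-Hochberg over all genes), and 5 did not pass. Of all 13725 genes, 23.7% were higher and 20.3% were lower by the same rule, 44.0% in all. The median member change was 0.63 (1.54-fold), with the middle of the distribution between 0.51 and 0.70, and the median of all genes was 0.018. On all 4 DKO arrays, 78 members lay above all 4 control arrays and 2 lay below them, against 23.1 and 20.3% of all genes. The rise was moderate in size: 2 members were higher by at least 2-fold and past the threshold and 1 was lower, against 3.63 and 4.63% of all genes.

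The array medians show how alike the animals were. Relative to the control means, the median member lay at 0.06, -0.00074, -0.06 and -0.0074 on the control arrays and at 0.49, 0.50, 0.79 and 0.67 on DKO arrays 1 to 4. The groups did not overlap, and both DKO arrays of the second slide (replicates 3 and 4) lay above both of the first. Within slide 1 the median change was 0.46 with 75 members called, and within slide 2 it was 0.78 with 69 called. Of all genes, 40% were called within slide 1 and 15.9% within slide 2, with 2 arrays per group in each. DKO replicate 3 stood apart from the others in array quality, with a limma array weight of 0.0663 against 0.56 to 1.58. Without it the median was 0.57, with 75 members higher and 2 lower. On the same 4 arrays the median of all genes lay between -0.0176 and 0.0668.

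**Figure D1:**
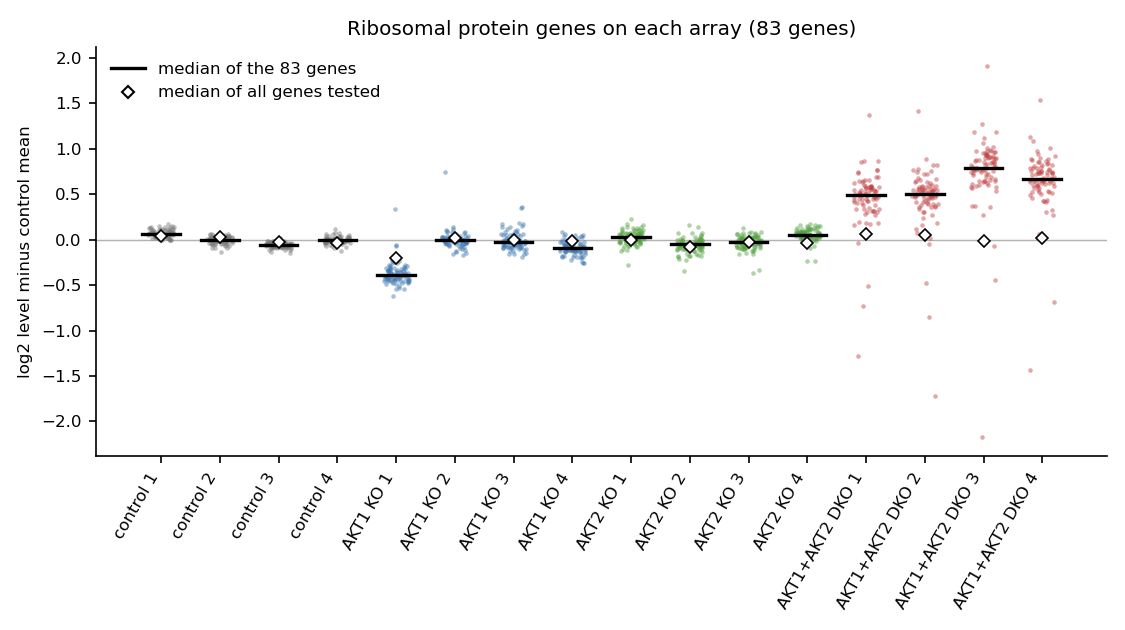
Log2 level of each of the 83 ribosomal protein genes minus its control mean (vertical axis) on each of the 16 arrays (horizontal axis), with each gene as a point, the median of the 83 genes as a bar and the median of all genes tested as a diamond. The bars of the 4 DKO arrays lie at 0.49 to 0.79, above all other arrays, while the diamonds stay near 0. AKT1 KO array 1 is the only array with a clearly low bar, at -0.39.

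Members of the large and the small subunit had similar median changes. Of the 50 large-subunit members 47 were higher and 1 was lower, with a median change of 0.63. Of the 33 small-subunit members 29 were higher and 1 was lower, with a median of 0.64. The large-minus-small difference was -0.014. On the single DKO arrays, the large and small medians were 0.49 and 0.50, 0.51 and 0.49, 0.79 and 0.82, and 0.65 and 0.73. The difference between subunits was thus smaller than that between animals. It was 0.0283 within slide 2 and -0.0669 after quantile normalization.

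Among large-subunit proteins, Rpl3, a core protein near the peptidyl transferase centre, had the largest rise. It read 6.24, 6.06, 6.06 and 6.06 in controls and 7.48, 7.52, 8.02 and 7.64 in the double knockout. The groups were far apart, with a change of 1.56 ± 0.16 (SE), or 2.94-fold, and an adjusted p of 2.99e-06 (limma). Its 3 kept probes gave changes of 1.56, 1.72 and 1.85. Rpl12, a protein at the base of the stalk that contacts elongation factors, read 6.99, 6.90, 6.78 and 6.84 in controls and 7.74, 7.77, 8.15 and 7.96 in the double knockout, a 2.03-fold rise (adjusted p = 6.03e-06). Rpl39, a small protein at the peptide exit tunnel, rose by 0.96 ± 0.11 from 6.82 ± 0.0437 to 7.77 ± 0.178. Rpl36a rose by 0.86 ± 0.089, and Rpl10, which joins the large subunit late in its assembly, by 0.82 ± 0.083. Rpl5, which binds 5S ribosomal RNA, rose by 0.82 ± 0.094, Rpl23 by 0.81 ± 0.09 and Rpl30 by 0.72 ± 0.071. The adjusted p of these 6 genes lay between 2.73e-06 and 9.64e-06.

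Of the 3 stalk proteins, which recruit translation factors, 2 passed. Rplp1 rose by 0.81 ± 0.11 and Rplp0, which anchors the stalk, by 0.53 ± 0.11 (limma, adjusted p = 5.87e-05 and 0.00146). Rplp2 read 8.55, 8.45, 8.41 and 8.55 in controls and 8.66, 8.61, 8.85 and 8.80 in the double knockout. Its DKO arrays all lay above its control arrays, but the difference of 0.24 ± 0.098 did not pass (adjusted p = 0.0607).

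Among small-subunit proteins, Rps12 had the largest rise. It read 7.24, 7.13, 7.05 and 7.12 in controls and 8.0, 7.96, 8.32 and 8.26 in the double knockout, a change of 0.999 ± 0.095 (adjusted p = 1.72e-06). Rps23, which lies at the decoding centre, had the smallest adjusted p of all members (1.12e-06). It read 6.70, 6.70, 6.66 and 6.70 in controls and 7.43, 7.41, 7.59 and 7.56 in the double knockout, a change of 0.81 ± 0.073. Rps4x rose by 0.78 ± 0.083, Rps20 by 0.76 ± 0.089 and Rps3a1 by 0.66 ± 0.085. Rps27a, made as a fusion with ubiquitin, rose by 0.72 ± 0.13. Its DKO arrays were spread more widely than those of the other small-subunit members, with an SD of 0.332. Rps6, the substrate of S6 kinase, read 6.69, 6.65, 6.55 and 6.61 in controls and 7.21, 7.23, 7.46 and 7.27 in the double knockout. The groups did not overlap and the rise was 0.67 ± 0.089 (adjusted p = 3.86e-05), close to the median member. The arrays measured its RNA and not its phosphorylation.

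**Figure D2:**
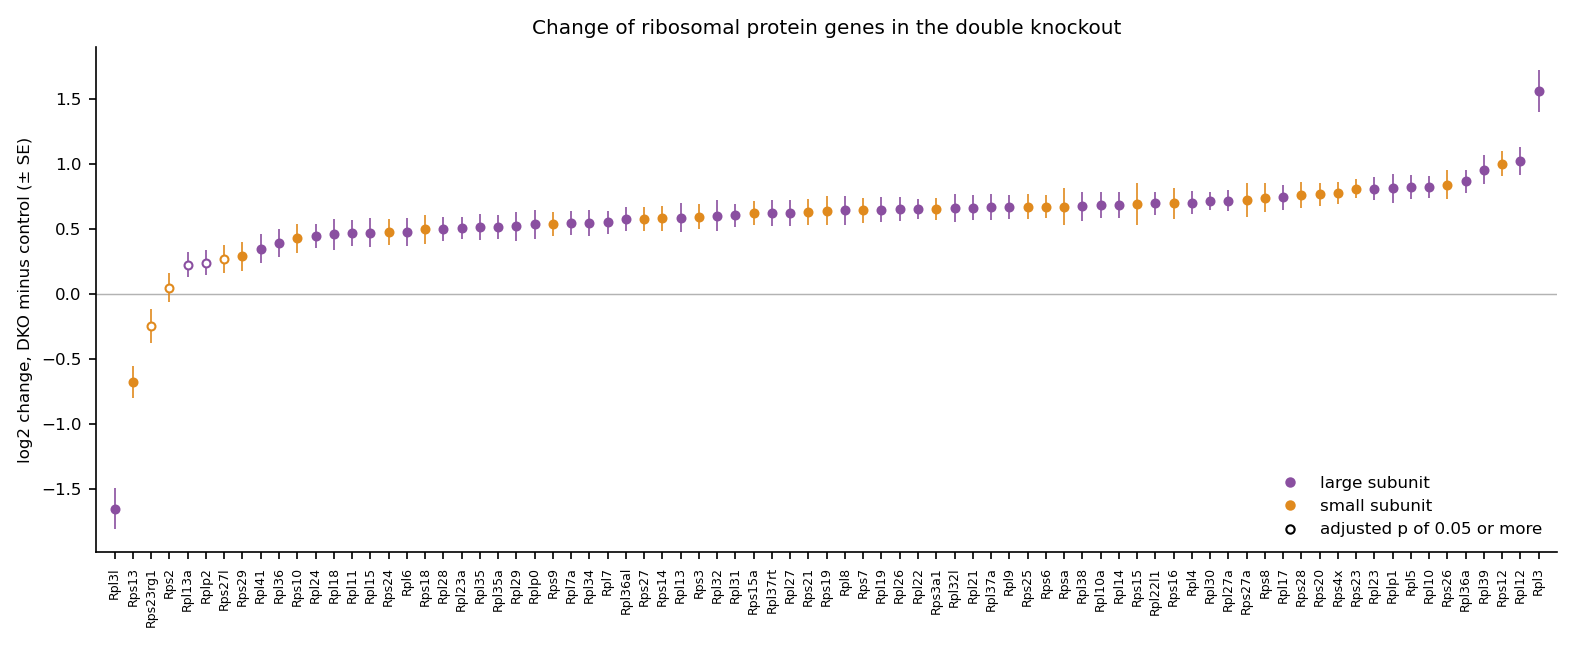
Log2 change in the double knockout against control (vertical axis, ± SE from limma, 4 arrays against 4) of 79 members in order of the change (horizontal axis), with the large subunit in purple and the small subunit in orange, and open points for members that did not pass. Large and small subunit members are mixed along the range, with Rpl3 (1.56) at the upper end and Rps13 (-0.68) and Rpl3l (-1.65) at the lower end.

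Rpl3l went the opposite way from Rpl3. It read 5.41, 5.45, 5.32 and 5.43 in controls and 4.12, 3.68, 3.23 and 3.97 in the double knockout. All DKO arrays lay more than 1 log2 unit below all control arrays, and replicate 3, the highest for Rpl3, was the lowest for Rpl3l. The fall was 1.65 on the log2 scale (SE 0.16, 3.15-fold lower, limma adjusted p = 2.31e-06). It was -1.53 within slide 1 and -1.78 within slide 2. The difference Rpl3l minus Rpl3 on each array, which does not depend on how arrays are scaled, moved by -3.21 (9.27-fold), from -0.70 ± 0.101 in controls to -3.91 ± 0.618. The exact two-sided permutation p was 0.0286, the smallest that 4 arrays against 4 allow. After adjustment over the 12 paralog comparisons it was 0.0686. With this floor, a shift of a single pair cannot pass the adjustment whatever its size, so the missed threshold decides nothing here. In AKT1 KO hearts the same difference was -0.44 (exact permutation p = 0.0571, adjusted 0.114), and in AKT2 KO hearts -0.05 (0.486, adjusted 0.685).

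The other 3 listed pairs of a widespread form and a paralog with both genes tested moved apart by less in the double knockout. There, Rpl22l1 minus Rpl22 moved by 0.04, Rps27l minus Rps27 by -0.31 and Rpl36al minus Rpl36a by -0.29. Rpl22 rose by 0.65 ± 0.078 and Rpl22l1 by 0.70 ± 0.088, so both forms rose by nearly the same amount. Rps27 and Rpl36al each rose by 0.57 and Rpl36a by 0.86. The exact permutation p in the double knockout was 0.0286 for the Rps27 and Rpl36a pairs and 0.514 for the Rpl22 pair. In AKT1 KO hearts Rpl22l1 minus Rpl22 moved by 0.20, and in AKT2 KO hearts Rps27l minus Rps27 by -0.13. Both had an exact permutation p of 0.0286 (adjusted 0.0686). The other shifts of these pairs in the single knockouts had an exact permutation p of 0.171 or more. None of the 12 comparisons passed after adjustment, for which the smallest value was 0.0686. Because of the floor of the exact p, this does not show that the forms of a pair moved alike. Retrocopies were not on the list of pairs. Of these, Rps23rg1 differed by -0.24 and did not pass while Rps23 rose by 0.81, and Rpl32l and Rpl32 rose by 0.66 and 0.60. The differences within these pairs were not tested.

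Rps13, a small-subunit protein, was the other member that fell. It read 7.65, 7.57, 7.49 and 7.55 in controls and 6.84, 6.71, 7.12 and 6.88 in the double knockout. The groups did not overlap, and the change was -0.68 ± 0.12 (1.6-fold lower, adjusted p = 5.24e-04). A single probe measured it, and the fall did not pass within slide 2 (-0.52, adjusted p = 0.0923), while it was -0.83 within slide 1 (adjusted p = 0.000859). It read 7.55, 7.53, 7.20 and 7.33 in AKT2 KO hearts, where the arrays overlapped the controls.

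**Figure D3:**
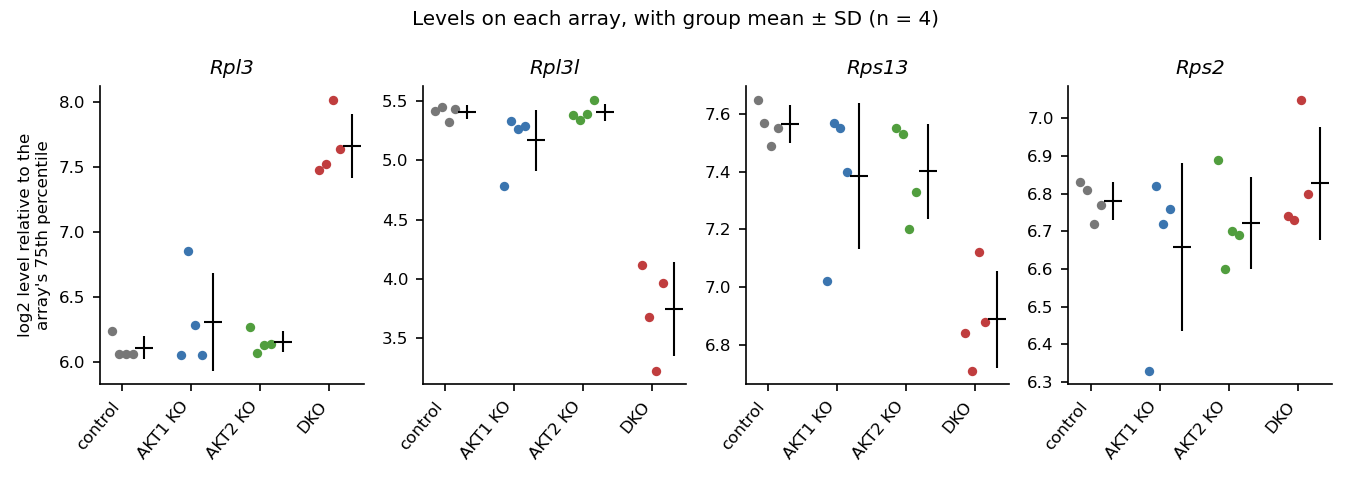
Log2 level relative to the 75th percentile of the array (vertical axis, a scale of its own for each gene) of Rpl3, Rpl3l, Rps13 and Rps2 on the 4 arrays of each group, with mean ± SD (n = 4) as a bar. Rpl3 lies higher in the double knockout, Rpl3l and Rps13 lie lower, and Rps2 overlaps the controls.

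The 5 members that did not pass in the double knockout were Rplp2, Rpl13a, Rps2, Rps27l and Rps23rg1. Rps2 read 6.83, 6.81, 6.72 and 6.77 in controls and 6.74, 6.73, 7.05 and 6.80 in the double knockout. The arrays of both groups were mixed, with a difference of 0.05 ± 0.11 (adjusted p = 0.756), and its second probe gave 0.06. Rpl13a read 6.92, 6.81, 6.73 and 6.79 in controls and 7.0, 6.83, 7.18 and 7.14 in the double knockout, a difference of 0.23 ± 0.098 (adjusted p = 0.0744). Rps27l differed by 0.27 ± 0.11 (limma, adjusted p = 0.0585) and Rps23rg1, which is annotated as a retrogene, by -0.24 ± 0.13 (adjusted p = 0.128). In the limma fit over single probes, the second probe of Rps27l passed (0.297, adjusted p = 0.0433). The second probe of Rps23rg1 did not (-0.473, limma adjusted p = 0.0602). The control mean of Rps23rg1 was -0.52, against 6.69 for Rps23. Rpl13a passed without DKO replicate 2 (0.295, limma adjusted p = 0.0268) or without AKT1 KO replicate 1 (0.0299), and Rps23rg1 without DKO replicate 4 (-0.349, adjusted p = 0.0287), with array weights (0.00306) and within slide 1 (0.0178). Leaving out AKT1 KO replicate 1 or DKO replicate 2 also let Rplp2 pass (adjusted p = 0.0141 and 0.0495) and Rps27l (0.034 and 0.0302). A missed threshold does not show that these genes were the same in both groups.

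Ribosomal protein genes often serve as reference genes in PCR. Of 4 in common use, Rpl32 rose by 0.60 ± 0.12, Rplp0 by 0.53 ± 0.11 and Rps18 by 0.50 ± 0.11 in the double knockout (limma, adjusted p between 0.000714 and 0.00278). Rpl13a did not pass, as given above. In AKT1 KO and AKT2 KO hearts none of the 4 passed, where 0.670 and 0.124% of all genes passed.

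The rise was seen with most probes. Of the 143 kept probes of members, 132 were higher, 2 were lower and 9 did not pass in the double knockout. Of all genes, 23.7% were higher and 20.3% lower, and the shares of all probes are not given here. For the 45 members with more than 1 kept probe, all probes of a gene had the same sign, and for 40 of them all probes passed as higher. None of the members' probes was saturated. Ribosomal protein genes have many processed copies in the genome, and the annotated retrocopies Rpl37rt and Rpl32l are among the members. Whether their probes also bind RNA of the parent genes was not tested.

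Neither single knockout changed a member past the threshold. In AKT1 KO hearts 0 of 83 passed (limma), with 3 at an unadjusted p under 0.05 and a smallest adjusted p of 0.583, where 0.670% of all genes passed. The median member change was -0.13 and 80 of 83 changes were negative, while the median of all genes was -0.0453. On the 4 arrays the median member lay at -0.39, -0.0034, -0.0216 and -0.0916, so replicate 1 stood apart (array weight 0.174), and on that array the median of all genes was also low, at -0.205. Without it the median member change was -0.0441 and that of all genes 0.00171. On all 4 arrays, 6 members lay below all controls and 0 above, against 5.61 and 2.34% of all genes. The lowest members were Rpl32 (-0.24), Rpl3l (-0.24), Rpl36 (-0.23) and Rpl36a (-0.21), and the highest Rpl3 at 0.20 and Rps23rg1 at 0.14. Rpl3 read 6.05, 6.85, 6.28 and 6.05 in this group, so replicates 2 and 3 lay above all controls and replicates 1 and 4 just below them.

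In AKT2 KO hearts 0 of 83 members passed (limma), with 1 at an unadjusted p under 0.05, where 0.124% of all genes passed. The median member change was 0.0022 against -0.0376 for all genes, with 45 changes positive and 38 negative. The array medians were 0.03, -0.0532, -0.0286 and 0.056, within or next to the range of the controls. On all 4 arrays, 2 members lay above all controls and 1 below, against 1.87 and 5.66% of all genes. The 1 member below 0.05 was Rpl13a. It read 6.53, 6.47, 6.48 and 6.58, below all 4 control arrays, a change of -0.30 ± 0.098 with an unadjusted p of 0.0081 that did not pass after adjustment (adjusted p = 1). With arrays weighted by quality its adjusted p was 0.0308. The highest changes were those of Rpl18 (0.15 ± 0.12) and Rpl23 (0.12 ± 0.09).

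Members near the targeted genes were read separately. No member lay within 20 Mb of Akt1. On chromosome 7, Rps16 (0.736 Mb away), Rps19 (2.73 Mb), Rpl13a (17.5 Mb) and Rpl18 (18.1 Mb) lay within that distance of Akt2. Of these 4, Rpl13a alone reached an unadjusted p under 0.05 in AKT2 KO hearts. In the double knockout Rps16 rose by 0.70 ± 0.12, Rps19 by 0.64 ± 0.11 and Rpl18 by 0.46 ± 0.12 (limma, adjusted p = 0.000402, 0.000289 and 0.00593), while Rpl13a did not pass. Rps13 is on the same chromosome, 88.7 Mb from Akt2.

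The double knockout also differed from each single knockout. Against AKT1 KO 82 members passed (limma), 79 of them higher and 3 lower, where 45.8% of all genes passed and 26.8% were higher, with a median member change of 0.77. The 3 lower members were Rpl3l (-1.42), Rps13 (-0.50) and Rps23rg1 (-0.38). Against AKT2 KO 80 passed, 78 of them higher and 2, Rpl3l and Rps13, lower, where 40.6% of all genes passed and 23.5% were higher, with a median of 0.63. AKT2 KO against AKT1 KO gave 0 members past the threshold (limma), with 5 at an unadjusted p under 0.05, where 0.860% of all genes passed. These comparisons share arrays with the comparisons against control and are not independent of them.

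For most members the change in the double knockout was larger than the sum of the changes in both single knockouts. The departure from additivity, the DKO change against control less the changes of both single knockouts, passed for 76 members (limma), 75 positive and 1 negative, Rpl3l, where 24.5% of all genes passed, 15.9% positive and 8.55% negative. Its median was 0.74 over the members and 0.0774 over all genes. The AKT1 KO change that it subtracts had a member median of -0.126, and of -0.0441 without AKT1 KO replicate 1. The size of the departures thus depends in part on that low array. The departure was 1.31 ± 0.22 for Rpl3, 1.17 ± 0.13 for Rps12, 1.17 ± 0.15 for Rpl39 and 1.14 ± 0.13 for Rpl36a. For Rpl3l it was -1.41 ± 0.23 (adjusted p = 0.000644), and for Rps13 -0.33 ± 0.18, which did not pass (adjusted p = 0.183). Within slide 1, 59 members passed, and within slide 2 only 3, with 2 arrays per group in each. The shares of all genes that departed within each slide are not given here, so these counts describe the fits and not the members alone.

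Genes that work with the ribosome were read from 5 lists. Of 21 tested genes for other TOP mRNAs and ribosome-bound partners, 15 rose and 0 fell in the double knockout, with a median change of 0.49, where 23.7% of all genes were higher and 20.3% lower. The elongation factor Eef1a1, which brings aminoacyl-tRNA to the ribosome, rose by 1.17 ± 0.1 (2.25-fold, limma adjusted p = 7.99e-07), the nucleolar protein Npm1 by 0.82 ± 0.083 and the histone chaperone Nap1l1 by 0.76 ± 0.092. Fau, which encodes a ribosomal protein under a symbol outside the rule and was picked after its value was seen, rose by 0.34 ± 0.089.

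Of 46 tested genes for making ribosomes, through pre-rRNA processing and subunit assembly, 32 rose and 1, Rrp1 (-0.25), fell, with a median of 0.46. Of all genes, 23.7% were higher and 20.3% lower. Rrp12, needed for export of the subunits, rose by 1.5 ± 0.13 (adjusted p = 9e-07), Gar1, a protein of the pseudouridylation complex, by 0.88 ± 0.082, and Heatr1, part of the early small-subunit processome, by 0.57 ± 0.074. Of 16 tested genes of RNA polymerase I and its factors, 5 rose, 0 fell and 11 did not pass, with a median of 0.23, a count nearer to the 23.7% of all genes that were higher. Without DKO replicate 3 the median of this list was 0.116, with 6 higher, and without AKT1 KO replicate 1 it had 8 higher and 1 lower. The transcription factor Myc, placed on this list because it promotes transcription of ribosomal RNA and ribosomal protein genes, rose by 3.24 ± 0.38 (9.47-fold, adjusted p = 1.06e-05). Polr1d, a polymerase subunit, rose by 0.67 ± 0.15 and Taf1b, of the promoter selectivity factor, by 0.44 ± 0.079. The large catalytic subunit Polr1a did not pass, at -0.32 ± 0.12 (adjusted p = 0.0509), and was picked after its value was seen.

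Of 30 tested translation initiation factors, 15 rose, 2 fell and 13 did not pass, with a median of 0.25. Of all genes, 23.7% were higher and 20.3% lower. The eIF3 subunits Eif3g, Eif3c and Eif3a rose by 0.54 ± 0.087, 0.48 ± 0.085 and 0.43 ± 0.072. Eif2b4 (-0.48) and Eif4g2 (-0.29) fell. Of 25 genes of mTORC1 signalling to translation, 2 rose, 2 fell and 21 did not pass, against the same shares of all genes. The list median was -0.0457. Without DKO replicate 3, 4 of the 25 fell. Those that rose were Eif4ebp1, a repressor of cap-dependent translation (1.64 ± 0.16, 3.12-fold, adjusted p = 2.15e-06), and Pdpk1, the kinase that phosphorylates Akt (0.69 ± 0.086). Those that fell were the cap-binding protein Eif4e (-1.05 ± 0.12, 2.06-fold lower, adjusted p = 1e-05) and Mlst8, an mTOR subunit (-0.43 ± 0.086). In AKT1 KO and AKT2 KO hearts 0 genes of each of the 5 lists passed, where 0.670 and 0.124% of all genes passed.

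**Figure D4:**
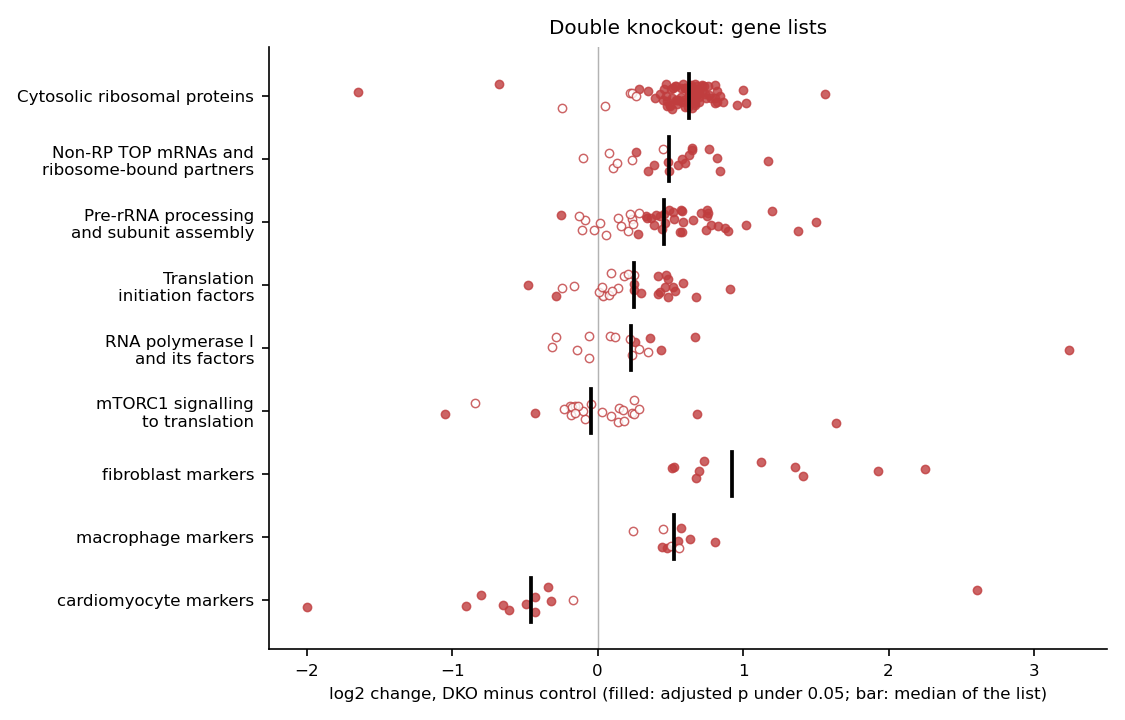
Log2 change in the double knockout against control (horizontal axis) of each tested gene of 9 groups (vertical axis), filled where the adjusted p was under 0.05, with the median of each group as a bar. The bars of ribosomal proteins (0.63), TOP and ribosome partners (0.49) and pre-rRNA processing (0.46) lie to the right of 0, that of mTORC1 signalling near 0 (-0.0457) and that of cardiomyocyte markers to the left (-0.46), with fibroblast markers at 0.93.

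Markers of the cell types of the heart moved in the same arrays. The counts below stand beside 23.7% of all genes higher and 20.3% lower in the double knockout. In the double knockout all 10 tested fibroblast markers rose, with a median change of 0.93, and their summed level was 452 to 659 times the 75th percentile of the array against 289 to 309 in controls. Of 10 macrophage markers 6 rose, with a summed level of 55.5 to 78.3 against 45.8 to 51.8. Of 12 cardiomyocyte markers 10 fell and 1, the fetal myosin Myh7 (2.61 ± 0.38), rose. Their summed level was 5670 to 6930 in the double knockout and 6430 to 7360 in controls, so these sums overlapped. With quantile normalization 5 of the 12 fell in place of 10, and within slide 2, 3 fell. All 12 were well above background on all 16 arrays. Of 10 endothelial markers 0 rose and 1 fell, and of 8 mural markers 3 rose (5 without DKO replicate 3) and 1 fell, with sums of 317 to 401 and 164 to 209 against 292 to 348 and 190 to 206. Of the lymphocyte, neutrophil and erythroid lists, 4, 3 and 5 markers were tested and none passed (limma), and Cd3g, Cd8a, Cd79a and Ms4a1 were not well above background in any whole group. Of 3 tested adipocyte markers 1 rose and 1 fell. Adipoq, Plin1 and Retn were not kept, and Fabp4, which was tested, is also on the endothelial list. In the single knockouts no marker of the 9 lists passed, where 0.670% (AKT1 KO) and 0.124% (AKT2 KO) of all genes passed. In RNA from whole tissue, a change in the number of cells of a type and a change in RNA per cell cannot be told apart, and the part of these cell types in the rise of the ribosomal protein genes was not tested.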

How the data were processed

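Each sample was 1 heart on 1 single-colour Agilent array (Cy3, 100 ng RNA). Per the file headers, the authors deposited scanner intensity values from Feature Extraction 12.0.3.1, already background-corrected by that program. The authors also deposited a table of log2 values, which correlated at 0.99997 to 0.99999 per array with quantile-normalized values centred on each probe's median; it served as an alternative. Signals were taken to log2 and the 75th percentile of the array's 56605 probes was subtracted. Genes were named by matching RefSeq accessions to the GRCm38.p6 table (22911 genes with a probe). A probe was kept where some group had it well above background on each of its 4 arrays, 118 outlier-flagged probes were dropped, and the brightest kept probe stood for a gene. limma 3.58.1 (R 4.3.3) fitted 4 group means over 16 arrays, with 7 contrasts and Benjamini-Hochberg adjustment over 13725 genes at 0.05. The fit was tested on simulated data. The number of arrays limits the precision.

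Named members were the 10 called ones with the smallest adjusted p in each comparison, the 5 largest rises and falls of each knockout, paralog pairs, PCR reference genes, Rps6 and members within 20 Mb of Akt1 or Akt2, with up to 3 called genes per pathway list and any others marked as picked later. Some of these genes are not reported here. The members and lists were chosen with earlier results of these data known. Alternatives covered background correction, scaling, filters, probe choice, array weights, blocks and leaving out arrays.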

Additional observations from a re-analysis of the deposited data

Results flagged for a closer look

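Single arrays stood apart from the other 3 of their group for 7 of the 176 groups of arrays examined (41 members named by rule and 3 medians, in 4 groups each). Members tended to move together on an array, so these groups are not independent. Whether the number of such gaps exceeds what chance gives was not tested. AKT1 KO replicate 1 was the low array for Rpl3l (4.78, the others 5.26 to 5.33), Rpl32 (6.75, the others 7.05 to 7.1) and Rpl7a (6.67, the others 6.97 to 7.02). DKO replicate 3 was high for Rpl23, at 8.14 against 7.93 to 7.94. Control replicate 1 was high for Rpl3, at 6.24 against 6.06, and control replicate 3 low for Rps23, at 6.66 against 6.70. AKT2 KO replicate 1 was high for Rpl15, at 6.62 against 6.54 to 6.56.

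The effect of losing both kinases differed from the sum of the single losses for 76 of the 83 members by the test of the departure from additivity (limma, adjusted over all genes). On the log2 scale the departure was -1.41 for Rpl3l and positive for the other members named here. In the large subunit it passed for Rpl3 (1.31), Rpl39 (1.17), Rpl36a (1.14), Rpl12 (1.1), Rpl5 (0.976), Rpl32 (0.904), Rpl10 (0.877), Rpl36al (0.841), Rpl27a (0.832), Rpl23 (0.83) and Rplp1 (0.825). It also passed for Rpl22 (0.816), Rpl30 (0.754), Rplp0 (0.683), Rpl13a (0.673), Rpl22l1 (0.655), Rpl36 (0.633), Rpl7a (0.531) and Rplp2 (0.523). In the small subunit it passed for Rps12 (1.17), Rps27a (0.944), Rps20 (0.909), Rps23 (0.905), Rps3a1 (0.848), Rps19 (0.822) and Rps6 (0.769). It passed too for Rps4x (0.763), Rps16 (0.737), Rps27 (0.736), Rps18 (0.682) and Rps27l (0.487). The arrays of 1 column on each slide make up a group, so the column cannot be told apart from the group in these differences too.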

How the results depend on the processing

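Counts of members called kept their size (within 1.5 times) and medians stayed within the spread between replicates under the alternatives run, with the exceptions below. No change of a named member that passed turned its sign. The AKT2 KO median (0.0022) and the large-minus-small differences in the double knockout (-0.0143), AKT1 KO (-0.0116) and AKT2 KO (0.00446), all near 0, each turned sign under at least 1 alternative. The double knockout had 74 to 79 higher and 2 or 3 lower members under every alternative except the fits within 1 slide (72 and 68 higher), and the 76 higher members stayed positive in each. Its median was 0.46 within slide 1 and 0.779 within slide 2, a split added after seeing the data. Within slide 2 only 3 members departed from additivity, where 2 arrays per group remained. The AKT2 KO median was 0.0613 with quantile normalization, 0.0739 in the authors' deposited values and -0.0557 within slide 1. Large minus small subunit was -0.0669 (quantile), -0.0623 (authors' deposited values) and 0.0283 (within slide 2) in the double knockout, and 0.0164 in AKT1 KO within slide 2. With array weights 1 member passed in AKT2 KO and 1 in AKT2 KO against AKT1 KO. The cause was not tested. Of the 5 members that did not pass in the double knockout, 4 passed under some alternatives: Rplp2 (adjusted p from 1.5e-05 to 0.272), Rps27l (0.0302 to 0.681), Rpl13a (0.0268 to 0.693) and Rps23rg1 (0.00306 to 0.805). Rpl36 failed to pass within either slide. Rpl18, Rpl7a, Rpl15 and Rps13 failed to pass within slide 2 only, where 15.9% of all genes passed.

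The labels do not say that replicate numbers pair the animals. Knockout and control arrays of the same number had deviations correlated above 0.1 in 10 of 12 cases (-0.217 to 0.38), and 8 of 12 knockout arrays were closest to the control of their own number. Same-numbered control, AKT2 KO and DKO arrays shared a slide and row, and the 2 lower correlations were those of AKT1 KO replicates 1 and 3, which lay on the other slide. Number and position on the slide thus cannot be told apart for those 3 groups, and the numbers were not used as pairs. With the replicate block, and equally with slide and row as a block, 75 members were higher and 2 lower in the double knockout, 76 departed from additivity, and the median stayed 0.627.

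Counts called in the gene lists moved more in the double knockout, and so did the share of all genes called. In either direction that share was 40% within slide 1, 15.9% within slide 2 and 59.9% with array weights, against 44.0%. It was 45.6% with quantile normalization and 49% without DKO replicate 3. Cardiomyocyte markers had 5 lower with quantile normalization and 3 within slide 2, against 10. Mural markers had 5 higher without DKO replicate 3, 6 with array weights and 1 within slide 2, against 3. Within slides 1 and 2, pre-rRNA processing had 21 and 17 higher, against 32, and initiation factors 10 and 4, against 15. TOP and ribosome partners had 9 higher within slide 2, against 15, RNA polymerase I genes 1 (8 with array weights), against 5, fibroblast markers 5, against 10, and macrophage markers 0, against 6. mTORC1 signalling had 4 higher and 6 lower with array weights, and 4 lower without DKO replicate 3 or with quantile normalization, against 2 and 2. All tested members were well above background on all arrays.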
